A study of Mus musculus with 14 samples.

Results

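The 10 genes described here are expressed by the endothelial cells that line blood vessels, and they were taken from the deposited count table by gene name, 10 rows of 56953. Of these, 6 mark vessel identity (Kdr, Eng, Pecam1, Cdh5, Tie1 and Tek) and 4 encode adhesion molecules that endothelium can switch on (Sele, Selp, Icam1 and Vcam1). Each name matched 1 row, and all 10 passed the filter on low counts that left 16027 genes for testing. The study made 14 RNA libraries from mouse skin with QuantSeq FWD, a kit that reads 1 short stretch close to the 3′ end of polyadenylated RNA. There were 2 DMSO and 2 imiquimod (IMQ) libraries of wild type C57BL/6J mice. Mice with both Nedd8 alleles floxed (NEDD8fl/fl) and negative for K14-CreERT, named Cre-negative, contributed 3 DMSO and 2 IMQ libraries. The same numbers came from NEDD8fl/fl mice positive for K14-CreERT, named knockout. Imiquimod is an agonist of Toll-like receptor 7, given as Aldara cream with 5% of the drug daily from day 0 to day 7. Knockout mice were induced on 5 consecutive days before the start, and no induction is stated for the other mice, so the inducing treatment and the genotype cannot be told apart. The K14 promoter drives Cre in basal keratinocytes and not in endothelium, so the deletion is not aimed at the vessels. The cream went on shaved backs or right ears, without a label saying which site a library is from, and no library is labelled as given a cream without the drug. The series' design text describes DMSO on the back over 3 days and does not mention the cream, so site and duration may differ between DMSO and IMQ libraries and cannot be told apart from the drug. Ages are not given, and nothing says that libraries came from separate animals, so p-values measure only the spread between these libraries.

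Endothelial cells hold vessels together and control which blood cells leave them. Kdr encodes the main receptor for the growth factor VEGF-A, Tek encodes the receptor of the angiopoietins and Tie1 encodes its partner receptor. Eng encodes endoglin, a coreceptor for BMP9 and TGF-β, and Pecam1 and Cdh5 encode proteins of the junctions between endothelial cells. In resting skin the adhesion molecules are low, and cytokines such as TNF and IL-1 induce them through NF-κB. The E- and P-selectins, encoded by Sele and Selp, let leukocytes roll along the wall of a venule, and ICAM-1 and VCAM-1, encoded by Icam1 and Vcam1, bind leukocyte integrins and stop them. Sele and Cdh5 are largely restricted to endothelium, whereas Pecam1 and Selp are also made by platelets and their precursors, and Pecam1, Icam1 and Vcam1 also by leukocytes or stromal cells. Keratinocytes can make Icam1 when inflamed.

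The libraries held between 5552954 and 34362477 counts. The ribosomal RNA gene Rn18s-rs5 took 3.84% to 19.1% of them, and more than 15% in knockout DMSO replicate 1 and Cre-negative IMQ replicate 2. By their Xist and Y-linked reads, the wild-type libraries and those of knockout DMSO skin were female, all Cre-negative IMQ and knockout IMQ libraries were male, and Cre-negative DMSO skin held 2 male libraries and 1 female. The comparison of knockout with Cre-negative skin under IMQ is thus within 1 sex, as is that of IMQ with DMSO in wild-type skin, and the IMQ response of knockout skin cannot be told apart from a difference between the sexes. Nedd8 itself measured 313 ± 40.0 CPM (SD, n = 3) in Cre-negative and 226 ± 129 (n = 3) in knockout DMSO skin, and 388 ± 104 (n = 2) and 229 ± 111 (n = 2) with IMQ, with overlapping libraries in both. The sources used here do not give whether the tag lies in the deleted part, so this level does not check the labels. CPM are read counts scaled to a common library size, here with TMM factors.

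The 2 selectin genes lie beside each other on chromosome 1 (GRCm39, plus strand), Sele at 163875773 to 163885246 and Selp at 163942833 to 163977595, with 57.6 kb between them. Kdr lies on chromosome 5 at 76093487 to 76139118 on the minus strand, Eng on chromosome 2 at 32536607 to 32572681 and Pecam1 on chromosome 11 at 106545043 to 106641454. Promoter sequences from RefSeq (GRCm38.p6) were found for 7 of the 10 genes, and not for Pecam1, Cdh5 and Vcam1. The 250 bases before the annotated start are shown for both selectin genes and for Kdr. Over the 14 libraries the selectin levels moved together (Pearson r of log2 CPM 0.93). Kdr followed them less closely (0.43 with Sele and 0.40 with Selp). They are Sele at chr1:164047984-164048233 (plus strand), Selp at chr1:164115014-164115263 (plus strand) and Kdr at chr5:75978456-75978705 (minus strand), each 5′ to 3′ on the gene's strand. Capitals mark matches to the letters TATAAA of a promoter box, to the letters CAGGAAG that ETS factors can bind and to the NF-κB consensus, each searched on both strands.
Sele: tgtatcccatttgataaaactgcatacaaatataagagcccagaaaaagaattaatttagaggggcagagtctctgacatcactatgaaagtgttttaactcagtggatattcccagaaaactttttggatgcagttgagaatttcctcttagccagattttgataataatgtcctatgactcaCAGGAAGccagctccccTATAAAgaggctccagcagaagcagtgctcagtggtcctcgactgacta
Selp: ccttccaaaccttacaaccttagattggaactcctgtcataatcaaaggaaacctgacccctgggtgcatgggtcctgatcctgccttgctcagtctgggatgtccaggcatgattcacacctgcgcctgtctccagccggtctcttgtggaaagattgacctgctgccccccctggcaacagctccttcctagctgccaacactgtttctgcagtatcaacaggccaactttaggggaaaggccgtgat
Kdr: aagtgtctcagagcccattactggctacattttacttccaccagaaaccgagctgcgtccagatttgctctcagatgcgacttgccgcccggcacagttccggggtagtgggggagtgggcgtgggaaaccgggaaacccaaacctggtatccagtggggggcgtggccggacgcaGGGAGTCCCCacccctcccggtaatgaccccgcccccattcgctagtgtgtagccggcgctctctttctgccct
The Sele window holds CAGGAAG at -66 to -60 from the start and TATAAA at -49 to -44. In Kdr the NF-κB consensus matched at -74 to -65 on both strands, over the same bases. No match lies in the Selp window. Among the other 4 genes with a sequence, the letters TATAAA lie at 14 to 19 in Icam1, after the start and so not in the place of a promoter box. CCGGAAG, another ETS sequence, was found in none of the 7 windows. Only exact matches to the NF-κB consensus were searched, so variant sites in any of these windows are not shown. Of 32851 RefSeq windows of 300 bases, 13.6% held TATAAA, 13.3% CAGGAAG, 8.86% CCGGAAG and 8.46% the NF-κB consensus, so none of these is rare.

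The order of the groups differed between the genes. Knockout IMQ skin had the highest mean of the 6 groups in 9 of the 10 genes, the exception being Tek, which was highest in Cre-negative DMSO skin. The lowest mean was in wild-type DMSO skin for Pecam1, Sele, Selp and Icam1, in wild-type IMQ skin for Cdh5, Tek and Vcam1, in Cre-negative IMQ skin for Kdr and Eng, and in Cre-negative DMSO skin for Tie1. From the lowest to the highest group mean, Sele spanned 43.8-fold, Selp 31.8-fold and Vcam1 28.6-fold. Icam1 spanned 7.14-fold, and the 6 identity genes spanned 4.97-fold (Tek) to 8.85-fold (Eng). Of the 5 neighbouring pairs of groups in each order, 1 to 3 did not overlap in their libraries. The knockout IMQ libraries stood clear of the next group for Kdr, Cdh5, Tie1, Icam1 and Vcam1, by little for Kdr, Cdh5 and Tie1. None of these counts of group orders was made over all genes tested, so they describe the members only and have no background beside them.

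**Figure D1:**
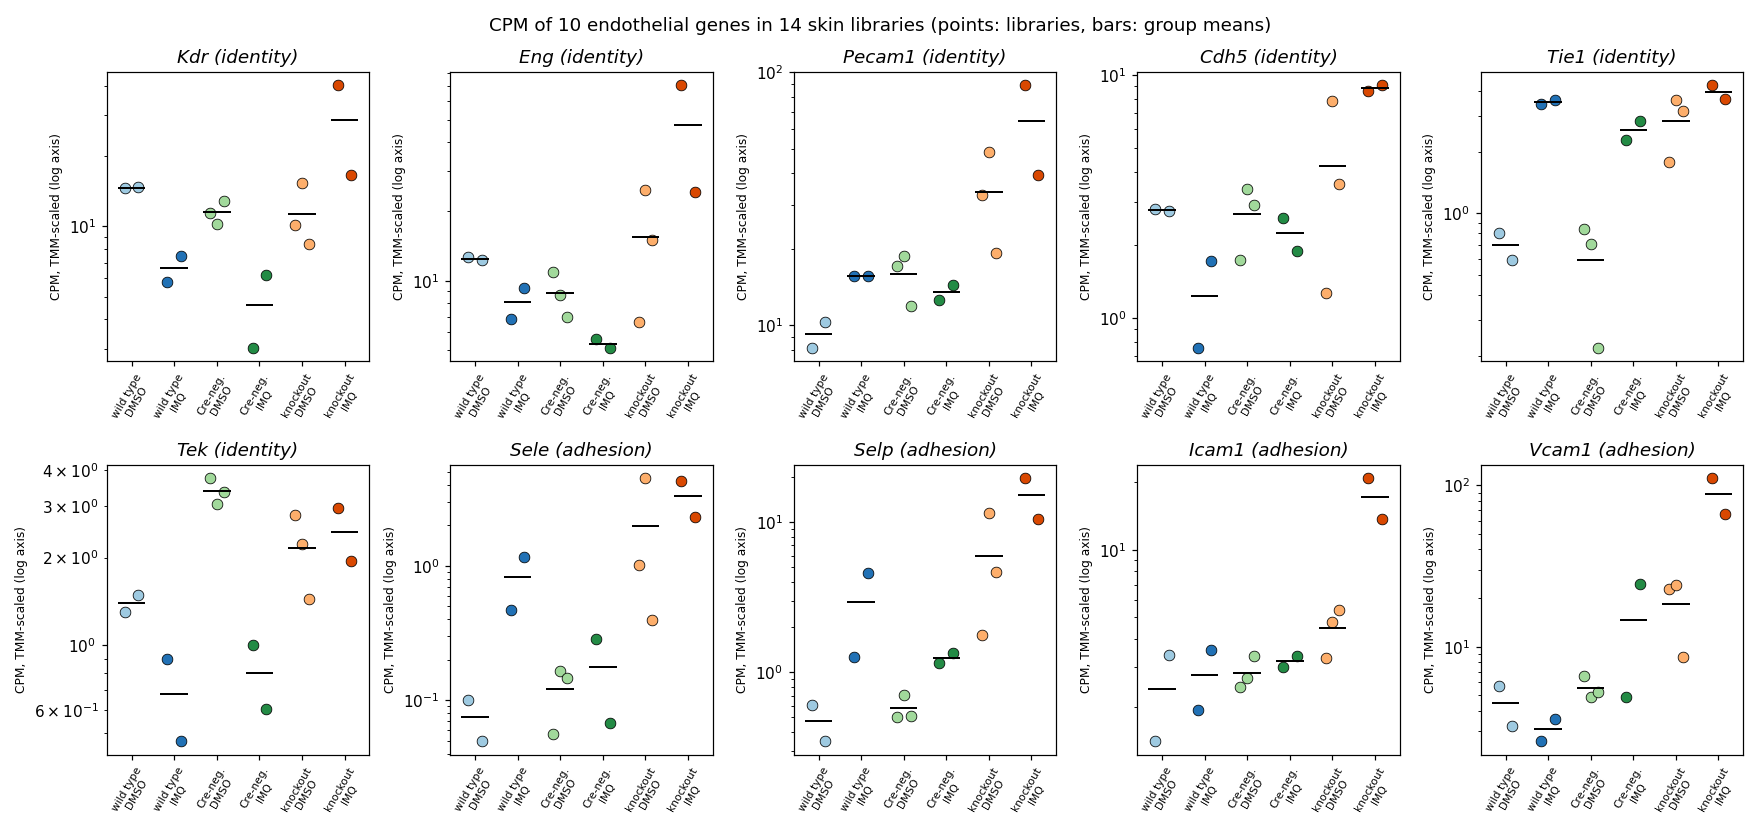
CPM (log axis) of each of the 10 genes in the 14 libraries, with 1 point per library, a bar for each group mean and the genotype and treatment on the x axis. Both knockout IMQ libraries lie above both Cre-negative IMQ libraries in all 10 genes, which held for 30.7% of all genes tested. Tie1 is lowest in the DMSO groups of wild-type and Cre-negative skin.

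Among the identity genes, Kdr, the VEGF-A receptor, was lower with IMQ in both control genotypes and higher with it in the knockout. It measured 14.5 and 14.8 CPM in wild-type DMSO skin and 5.79 and 7.48 with IMQ. In Cre-negative skin it measured 11.5, 10.2 and 12.8 CPM with DMSO and 3.01 and 6.19 with IMQ, and in knockout skin 10.2, 15.3 and 8.43 with DMSO and 40.3 and 16.6 with IMQ. DMSO and IMQ libraries overlapped in none of the 3 genotypes, and the DMSO libraries of knockout and Cre-negative skin overlapped. Of all genes, 34.3% lay wholly below with IMQ in wild-type and 29.5% in Cre-negative skin, and 22.5% wholly above in knockout skin. By the edgeR model described below, none of the 3 Kdr changes passed (adjusted p = 0.0886, 0.0557 and 0.051). Eng, endoglin, had the same order in the controls, with 12.6 and 12.3 CPM with DMSO set against 6.83 and 9.35 with IMQ in wild-type skin. Cre-negative libraries had 10.9, 8.65 and 6.99 CPM against 5.60 and 5.11. In knockout skin Eng measured 6.62, 24.7 and 15 CPM with DMSO and 70.6 and 24.2 with IMQ. There the groups overlapped, since knockout DMSO replicate 2 lay just above knockout IMQ replicate 2.

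The junction genes were highest in knockout skin. Pecam1 measured 8.13 and 10.3 CPM in wild-type DMSO and 15.7 and 15.7 in wild-type IMQ skin. It measured 17.2, 18.9 and 11.9 CPM in Cre-negative DMSO skin, 12.6 and 14.4 with IMQ, 32.9, 48.6 and 19.3 in knockout DMSO skin and 89.2 and 39.3 with IMQ. All 3 knockout DMSO libraries lay above the Cre-negative DMSO libraries, the lowest of them narrowly. Cdh5, VE-cadherin, measured 2.81 and 2.77 CPM in wild-type DMSO and 0.753 and 1.71 in wild-type IMQ skin, and 1.73, 3.39 and 2.91 against 2.58 and 1.88 in Cre-negative skin. In knockout skin it measured 1.27, 7.86 and 3.58 CPM with DMSO and 8.60 and 9.12 with IMQ. The IMQ libraries lay below the DMSO libraries in wild-type skin, among them in Cre-negative skin and above them in knockout skin.

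Tek and the gene of its partner receptor, Tie1, had unlike patterns. Tie1 was low in control DMSO skin, with 0.803 and 0.594 CPM in wild-type and 0.839, 0.711 and 0.219 in Cre-negative libraries. With IMQ it measured 3.44 and 3.58 CPM in wild-type and 2.30 and 2.83 in Cre-negative skin, and knockout skin measured 1.78, 3.59 and 3.18 with DMSO and 4.26 and 3.63 with IMQ. Every library that had IMQ or was from knockout skin lay above every control DMSO library. Tek measured 1.3 and 1.49 CPM in wild-type DMSO, 0.895 and 0.468 in wild-type IMQ, 3.75, 3.06 and 3.35 in Cre-negative DMSO and 1.0 and 0.605 in Cre-negative IMQ skin. In knockout skin Tek measured 2.80, 2.23 and 1.44 CPM with DMSO and 2.97 and 1.95 with IMQ. The IMQ libraries lay below the DMSO libraries in both control genotypes and among them in the knockout.

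The selectin genes rested on few reads. Sele had 1 count in each wild-type DMSO library (0.1 and 0.0495 CPM) and 1, 3 and 2 counts in Cre-negative DMSO skin (0.0559, 0.164 and 0.146 CPM). With IMQ it measured 0.471 and 1.17 CPM in wild-type skin, and Cre-negative libraries had 0.287 and 0.0673 CPM. It measured 1.02, 4.46 and 0.395 CPM in knockout DMSO skin and 4.26 and 2.30 with IMQ. All 5 knockout libraries lay above the 5 control DMSO libraries, and those of Cre-negative skin with and without IMQ overlapped. Selp measured 0.602 and 0.347 CPM in wild-type DMSO, 1.27 and 4.60 in wild-type IMQ, 0.503, 0.711 and 0.510 in Cre-negative DMSO and 1.15 and 1.35 in Cre-negative IMQ skin. In knockout skin it measured 1.78, 11.5 and 4.65 CPM with DMSO and 19.6 and 10.5 with IMQ. Selp was thus above its DMSO level with IMQ in both control genotypes, and knockout DMSO replicate 2 was the highest of its group for both selectins.

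The integrin ligand genes had overlapping DMSO and IMQ libraries in both control genotypes. Icam1 measured 1.40 and 3.42 CPM in wild-type DMSO, 1.93 and 3.58 in wild-type IMQ, 2.46, 2.68 and 3.35 in Cre-negative DMSO and 3.01 and 3.36 in Cre-negative IMQ skin. In knockout skin it measured 3.31, 4.76 and 5.38 CPM with DMSO and 20.8 and 13.6 with IMQ, so that only the knockout IMQ libraries stood apart from their DMSO group. Vcam1 measured 5.72 and 3.22 CPM in wild-type DMSO, 2.59 and 3.58 in wild-type IMQ, 6.54, 4.87 and 5.25 in Cre-negative DMSO and 4.88 and 24.4 in Cre-negative IMQ skin. It measured 22.7, 24.2 and 8.60 CPM in knockout DMSO skin and 110.5 and 66.1 with IMQ. Cre-negative IMQ replicate 2 lay at the level of knockout DMSO skin and replicate 1 at that of Cre-negative DMSO skin, while the knockout libraries lay above the Cre-negative ones under each treatment.

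In wild-type skin, 1 identity gene and 1 adhesion gene rose with IMQ. Tie1 rose 5.08-fold (log2 change 2.34 ± 0.56 SE, adjusted p = 0.0107) and Selp rose 6.28-fold (2.65 ± 0.83, adjusted p = 0.0372), where every adjusted p is that of edgeR's quasi-likelihood model, Benjamini-Hochberg corrected over 16027 genes, and a gene with a value under 0.05 is said to have risen or fallen. These are 2 of 10 members called, against 21.4% of all genes tested (9.59% rose and 11.8% fell), a share near the background. In 4 members both IMQ libraries lay above both DMSO libraries and in 4 below, against 29.5% and 34.3% of all genes. Kdr was 0.452 times its DMSO level (log2 change -1.14 ± 0.46, adjusted p = 0.0886), Cdh5 -1.21 ± 0.65 (0.199) and Tek -1.0 ± 0.51 (0.179), none of which passed. Sele had 25 counts with IMQ and 2 with DMSO, a ratio of 11.1 with a 95% counting interval of 2.76 to 96.4, and did not pass (adjusted p = 0.0791). In bulk skin, fewer cells of a type and less RNA per cell cannot be told apart, here and in all later comparisons. The Selp call ended without wild-type DMSO replicate 1 (log2 change 3.10) or 2 (2.25) or without wild-type IMQ replicate 2 (1.57), and the Tie1 call without wild-type DMSO replicate 2 (2.12). Scaling by library size alone exchanged the called members, since Tie1 (1.66, adjusted p = 0.0576) and Selp (2.10, 0.116) lost their calls and Kdr (-1.8, 0.0212) and Tek (-1.76, 0.0207) passed. The Selp call also ended with limma voom (2.30) and with only the groups compared (2.64), and Sele passed with DESeq2 (3.55) and with no filter (3.42).

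In Cre-negative skin, Tie1 rose and its partner Tek fell with IMQ. Tie1 rose 4.24-fold (log2 change 2.08 ± 0.49, adjusted p = 0.0113) and Tek fell to 0.230 times its DMSO level (-2.12 ± 0.50, adjusted p = 0.0113). Of the 10 members 2 were called, against 18.2% of all genes tested (8.15% rose and 10.1% fell), and 0 of 4 adhesion genes. The IMQ libraries lay wholly above the DMSO libraries in 2 members and wholly below in 3, against 24.8% and 29.5% of all genes. Kdr was again lower (-1.29 ± 0.44, adjusted p = 0.0557) and did not pass here, but passed with library size alone (-1.94, 0.0141), DESeq2 (-1.26, 0.0309), no filter (-1.29, 0.0443) and only the groups compared (-1.28, 0.0376). Vcam1 was higher by 1.41 ± 0.56 on the log2 scale (adjusted p = 0.0975) and Selp by 1.11 ± 0.75 (0.318), and Icam1 differed by 0.18 ± 0.44. Sele had 3 counts with IMQ and 6 with DMSO, a ratio of 1.14 (95% counting interval 0.185 to 5.35). Both calls ended without Cre-negative IMQ replicate 2 (Tie1 1.92, Tek -1.75), a library high in Rn18s-rs5, and the Tie1 call with library size alone (1.5, adjusted p = 0.0614). Vcam1 passed without Cre-negative IMQ replicate 1 (2.23) and with no filter (1.43), and changed sign without replicate 2 (-0.19).

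RNA of several other cell types moved with IMQ in both control genotypes. All 10 neutrophil markers rose in each, from a summed 80.5 to 231 CPM to 64104 to 152924 in wild-type and from 65.6 to 691 to 85981 to 192863 in Cre-negative skin, with Ly6g at 0 in both DMSO groups. Of 10 keratinocyte markers 5 rose in each, with sums of 8702 to 9091 CPM against 37464 to 69312 in wild-type and 9124 to 15975 against 33408 to 43838 in Cre-negative skin. Of 10 fibroblast markers 4 fell in wild-type skin (1069 to 2047 CPM against 291 to 514), and 2 fell and 1 rose in Cre-negative skin (2383 to 2524 against 693 to 1644). Of 10 macrophage markers 1 rose in wild-type and 1 fell in Cre-negative skin. Of 10 skeletal muscle markers, all detected, 7 fell in wild-type and 10 in Cre-negative skin, and their summed level went from 9408 to 12275 CPM to 1775 to 4653 in wild-type and from 8462 to 22636 to 1038 to 1739 in Cre-negative skin. Of 11 pericyte and smooth muscle markers, 5 fell in each genotype and 0 rose, among them Abcc9, a potassium channel subunit of pericytes (-2.81 ± 0.49 and -2.81 ± 0.48). Their part in the Kdr, Tek, Tie1 and Selp values was not tested. Among 26 other endothelial genes, 1 rose and 3 fell in wild-type skin, while 0 rose and 4 fell in the Cre-negative mice, with medians of -0.52 and -0.76. The shares were 3.85% and 11.5% in wild-type skin, where 9.59% of all genes rose and 11.8% fell. In Cre-negative skin they were 0% and 15.4%, against 8.15% and 10.1%. Cd34, a sialomucin of capillary endothelium and of other cells, fell by 1.62 ± 0.42 and 2.33 ± 0.41 on the log2 scale, and Ptprb, the phosphatase that restrains Tek signalling, fell by 1.41 ± 0.47 and 1.59 ± 0.46. Nos3, endothelial nitric oxide synthase, rose in wild-type skin (1.70 ± 0.40).

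Ligands of the identity receptors changed as well. Angpt1, the activating ligand of Tek, fell by 2.70 ± 0.51 on the log2 scale in wild-type skin (6.95 to 1.06 CPM) and by 3.14 ± 0.53 in Cre-negative skin (6.35 to 0.733 CPM). Vegfa, the ligand of Kdr, rose in Cre-negative skin by 1.47 ± 0.34. Id1, a target of BMP and endoglin signalling also expressed by keratinocytes, rose by 2.20 ± 0.34 and 2.20 ± 0.29. Of 20 tested genes of VEGF, angiopoietin and endoglin signalling, 2 rose and 7 fell in wild-type skin, and 2 rose and 1 fell in Cre-negative skin. These are 10% and 35% in wild-type skin, against 9.59% and 11.8% of all genes. In Cre-negative skin they are 10% and 5%, against 8.15% and 10.1%.

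In knockout skin, Icam1 and Vcam1 rose with IMQ, with Eng at the edge of the threshold. Icam1 rose 3.75-fold (log2 change 1.91 ± 0.42, adjusted p = 0.00964), Vcam1 4.83-fold (2.27 ± 0.56, adjusted p = 0.0191) and Eng 3.03-fold (1.60 ± 0.48, adjusted p = 0.0484). These 3 of 10 members stand against 11.1% of all genes called (8.56% rose and 2.52% fell). The IMQ libraries lay wholly above in 5 members and wholly below in 0, against 22.5% and 18.9% of all genes. Kdr was 2.52 times its DMSO level (1.33 ± 0.41, adjusted p = 0.051) and did not pass, and Selp (1.3 ± 0.61, 0.195) and Sele (0.75 ± 0.79, 0.588), which were already above control levels with DMSO, did not either. All 3 calls ended without knockout IMQ replicate 1, the higher library of its group for 9 of the 10 genes, when Eng gave 0.63, Icam1 1.57 and Vcam1 1.86. The Eng call also ended without knockout DMSO replicate 1 (1.31) or 3 (1.57), and the Vcam1 call without knockout DMSO replicate 3 (1.91). Kdr passed without knockout DMSO replicate 2 (1.62) or knockout IMQ replicate 2 (1.84), and Selp without knockout DMSO replicate 2 (2.13). With a term for sex in the model 0 members passed. The Eng call ended too with library size alone, limma voom and only the groups compared (adjusted p from 0.0771 to 0.133), and Kdr passed with RLE scaling, DESeq2, no filter and a stricter filter (0.0191 to 0.047). Markers of other cells that can make Icam1 and Vcam1 moved in the same comparison. Of 10 macrophage markers 6 rose (431 to 819 CPM against 1125 to 2291) and of 10 neutrophil markers 8 rose (17051 to 63214 against 54019 to 114096), with none at 0. All 10 keratinocyte markers were lower and 1 fell, with sums of 39982 to 64530 against 15833 to 25878 CPM. Their part in the Icam1, Vcam1 and Eng values was not tested.

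Without IMQ, knockout skin had more selectin RNA than Cre-negative skin. Selp rose 10.5-fold (log2 difference 3.39 ± 0.65, adjusted p = 0.00202), Tie1 4.84-fold (2.27 ± 0.46, adjusted p = 0.00254) and Sele 15.2-fold by the fit (3.92 ± 0.94, adjusted p = 0.00728), with 64 counts against 6 and a count ratio of 10.7 (95% counting interval 4.66 to 30.3). Vcam1 rose 3.29-fold (1.72 ± 0.53, adjusted p = 0.0256) and Pecam1 2.09-fold (1.06 ± 0.37, adjusted p = 0.0438). These are 5 of 10 members, 3 of 4 adhesion genes and 2 of 6 identity genes, against 29.6% of all genes called (14% rose and 15.7% fell). Knockout libraries lay wholly above in 5 members and wholly below in 1, Tek, against 21.8% and 26.5% of all genes. Kdr differed by -0.02 ± 0.37, so the receptor of VEGF-A was not detectably different, and Tek (-0.72 ± 0.40), Cdh5 (0.71 ± 0.51), Eng (0.82 ± 0.44) and Icam1 (0.70 ± 0.39) did not pass. Tie1 kept its call under all 17 alternative settings, including each left-out library. Selp lost it only with a sex term (3.56, adjusted p = 0.0657). Sele lost it without knockout DMSO replicate 2 (2.17) and with a sex term (3.67). Pecam1 lost its call without any 1 Cre-negative DMSO library (1.12, 1.20 and 0.89) or without knockout DMSO replicate 1 (1.08) or 2 (0.69), with a sex term (1.49, adjusted p = 0.124) and with library size alone (0.71, 0.197). Vcam1 lost it likewise (1.85, 1.63, 1.68, and 1.55 and 1.46), with a sex term (1.8, adjusted p = 0.206) and with library size alone (1.33, 0.0652). With limma voom Eng (0.98), Icam1 (0.86) and Tek (-0.90) passed, and Tek also with library size alone (-1.09).

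Other RNA moved with this comparison. All 10 skeletal muscle markers fell (8462 to 22636 CPM in Cre-negative, 1726 to 2757 in knockout DMSO skin), and 9 of 10 neutrophil markers rose, from a summed 65.6 to 691 CPM to 17051 to 63214, with Ly6g and Stfa2l1 at 0 in Cre-negative DMSO skin. Of 10 keratinocyte markers 5 rose and 2 fell, with sums of 9124 to 15975 CPM in Cre-negative and 39982 to 64530 in knockout DMSO skin, and of 10 fibroblast markers 1 rose and 3 fell (2383 to 2524 against 915 to 1277). Their part in the differences of the members was not tested. Platelet markers, which matter for Selp and Pecam1, summed to 34.7 to 40.9 CPM in Cre-negative and 20.6 to 40.2 in knockout DMSO skin, with 1 of 6 tested rising, and Gp1ba at 0 in both groups. Of 26 other endothelial genes 0 fell, against 15.7% of all genes tested (median 0.57). Another 4 rose, or 15.4%, a share near the 14% of all genes. They were Esam, a junction protein (1.43 ± 0.30), Nos3 (1.57 ± 0.33), Egfl7, a secreted endothelial factor (2.33 ± 0.59), and Ecscr, an endothelial cell surface protein (1.35 ± 0.48).

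Under IMQ, knockout skin exceeded Cre-negative skin in nearly all of the genes. In all 10 members both knockout libraries lay above both Cre-negative libraries, which held for 30.7% of all genes tested, with 25.3% the other way round. Of the 10, 9 rose, which are 5 of 6 identity genes and 4 of 4 adhesion genes, against 17.9% of all genes called (11.6% rose and 6.33% fell). Eng rose 8.86-fold (log2 difference 3.15 ± 0.59, adjusted p = 0.00349), Kdr 6.06-fold (2.60 ± 0.48, 0.00331), Icam1 5.37-fold (2.42 ± 0.49, 0.00504) and Pecam1 4.75-fold (2.25 ± 0.47, 0.00602). Selp rose 11.9-fold (3.57 ± 0.78, adjusted p = 0.00783) and Vcam1 5.96-fold (2.57 ± 0.65, 0.0158). Sele, with 82 counts against 3, gave a count ratio of 24.4 (95% counting interval 8.07 to 121) and also passed (4.42 ± 1.19, adjusted p = 0.0216). Cdh5 (2.0 ± 0.65, 0.0465) and Tek (1.66 ± 0.53, 0.0453) passed narrowly. Tie1 was the exception at 0.61 ± 0.51 (adjusted p = 0.449), since it was high in both groups.

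Kdr and Eng kept this call under all 15 alternative settings, and each of the other 7 lost it under at least 1. Without knockout IMQ replicate 1, Pecam1 (1.54), Cdh5 (2.04), Tek (1.32), Sele (3.90), Selp (3.06), Icam1 (2.09) and Vcam1 (2.16) no longer passed, and Kdr and Eng, still past the threshold, were 1.82 and 2.18. Without Cre-negative IMQ replicate 1, Pecam1 (2.07), Cdh5 (2.16), Sele (5.38), Selp (3.40), Tek (1.93) and Vcam1 (1.77) did not pass. Without Cre-negative IMQ replicate 2, Cdh5 (1.81), Sele (3.51), Selp (3.74) and Tek (1.32) did not, and without knockout IMQ replicate 2, Cdh5 (1.93) and Tek (1.89) did not. With all libraries, Tek lost its call under 5 settings (adjusted p from 0.0526 to 0.131), Cdh5 under 3 (0.0516 to 0.0926) and Sele with limma voom (0.138). Leaving out a library reduces a group of 2 to 1, whose spread is then taken from the other groups.

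**Figure D2:**
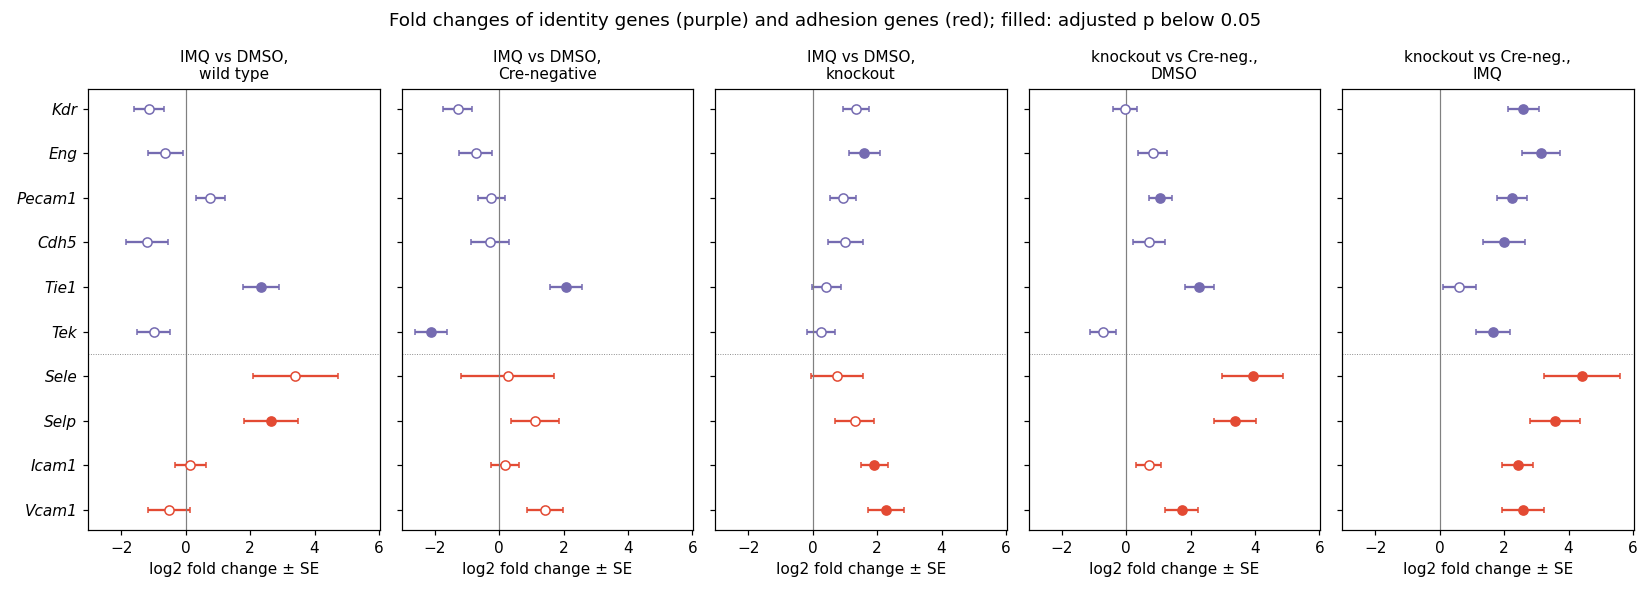
Log2 fold change (x axis, bars ± SE) of the 6 identity and 4 adhesion genes (y axis) in 5 comparisons, with filled points for adjusted p under 0.05. The identity genes other than Tie1 and Pecam1 lie below 0 for IMQ in wild-type skin. All 10 genes lie above 0 for knockout against Cre-negative skin with IMQ, as do 8178 of the 16027 genes tested.

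The wider endothelial list had the same direction under IMQ. Of 26 other endothelial genes, 19 rose and 0 fell in knockout against Cre-negative IMQ skin, with a median of 2.44 against 0.02 for all genes tested, and with the 1 gene at 0 counts in a group (Aplnr) set at its bound the median was also 2.44. Esam rose by 3.19 ± 0.39, Mmrn2, an extracellular matrix protein of endothelium, by 3.05 ± 0.50, Rasip1, a regulator of vessel lumens, by 2.55 ± 0.46 and Robo4, a receptor that stabilises vessels, by 4.03 ± 0.76 on the log2 scale. Summed, these 26 genes measured 116 to 130.0 CPM in Cre-negative and 410.3 to 734 in knockout IMQ skin. Of 7 lymphatic endothelial genes 3 rose, among them Flt4, the VEGF-C receptor (2.62 ± 0.54). Of 13 tested venular and activated endothelial genes 8 rose, among them Lrg1, a secreted glycoprotein of inflamed vessels (4.13 ± 0.63). Of all genes 11.6% rose. This last list includes chemokine and cytokine genes that are not particular to endothelium, so its count is not a measure of endothelium alone.

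Of 20 tested genes of VEGF, angiopoietin and endoglin signalling, 6 rose and 1 fell in the same comparison, where 11.6% of all genes rose. Angpt2, the ligand that endothelium releases to destabilise Tek signalling, rose by 2.85 ± 0.62 (1.83 to 14.1 CPM), Angpt1 by 3.25 ± 0.56, and Acvrl1, the type I receptor that works with endoglin, by 3.68 ± 0.57. Of 22 genes of NF-κB and its inducers 10 rose and 0 fell, led by Il1b (4.69 ± 0.59) and Tnf (3.91 ± 0.58). Of 15 leukocyte ligands of the adhesion genes 7 rose. Among them were Selplg, the ligand of P-selectin (3.06 ± 0.62), and the LFA-1 subunits Itgal (2.03 ± 0.45) and Itgb2 (2.55 ± 0.59), which bind ICAM-1. In knockout against Cre-negative DMSO skin, 2 of the 22 NF-κB genes rose and 1 fell, with a median of -0.04. There 2 of the 15 ligands rose and 4 fell, with a median of -0.84, while 14% of all genes rose and 15.7% fell. The part of both lists in the values of the members was not tested.

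Markers of other cells that can make these molecules moved too. Platelet markers summed to 107 to 228 CPM in knockout IMQ skin and 17.2 to 46.4 in Cre-negative IMQ skin, 5 of 6 tested rose, and Gp1ba was at 0 in the latter. Macrophage markers, 4 of 10 of which rose, summed to 1125 to 2291 and 635 to 961 CPM, with none at 0. Pericyte markers, 4 of 11 of which rose, summed to 353 to 1005 and 128 to 135 CPM, with none at 0. Of 10 neutrophil markers 7 rose, and they summed to 54019 to 114096 and 85981 to 192863 CPM. All 10 keratinocyte markers were lower and 2 fell, with sums of 15833 to 25878 CPM in the knockout and 33408 to 43838 in Cre-negative IMQ skin. Their part in the differences of Pecam1, Selp, Icam1 and Vcam1 was not tested.

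**Figure D3:**
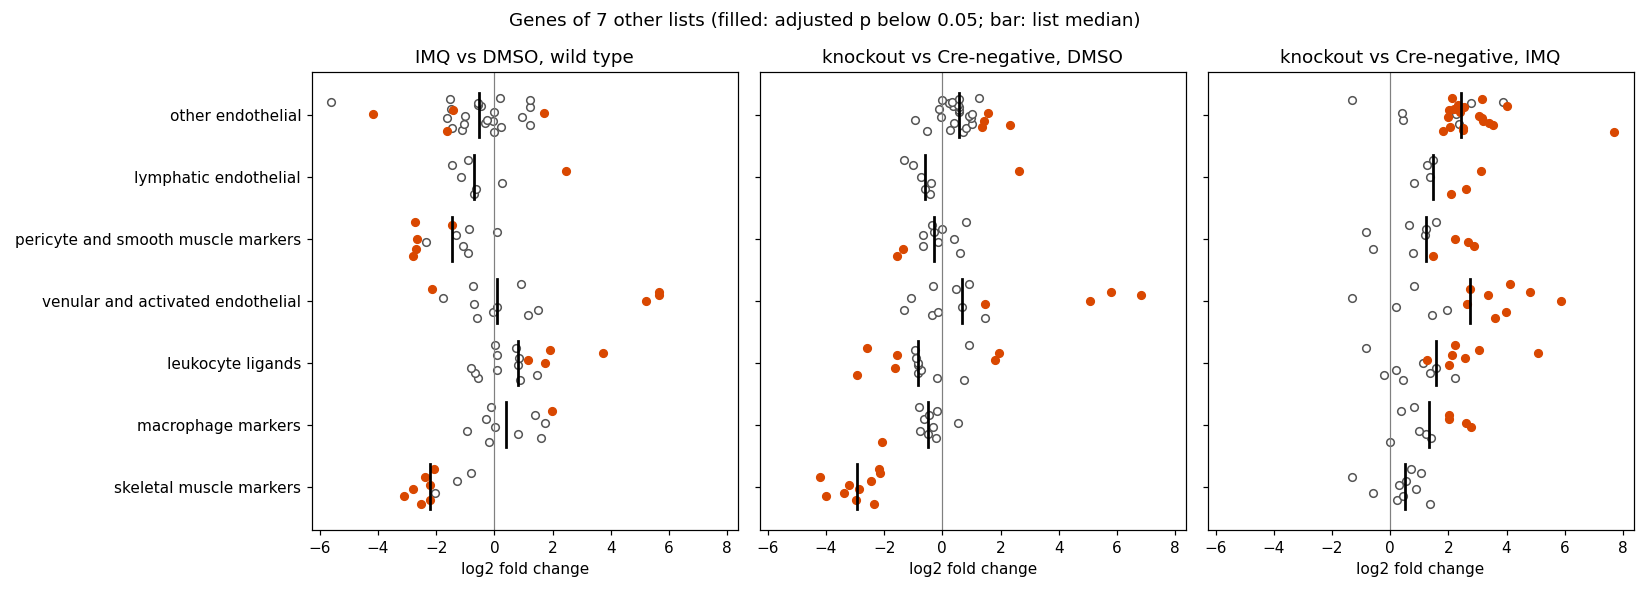
Log2 fold changes (x axis) of the genes of 7 other lists (y axis) in 3 comparisons, with 1 point per gene, filled for adjusted p under 0.05, and a bar at each list's median. In the right panel the other endothelial genes centre at 2.44, and in the middle panel all 10 skeletal muscle markers are filled and below 0.

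The response to IMQ differed between knockout and Cre-negative skin for 3 identity genes, with 1 adhesion gene at the edge of the threshold. The difference of responses was 2.62 ± 0.60 for Kdr (adjusted p = 0.00873), 2.38 ± 0.66 for Tek (adjusted p = 0.0216) and 2.33 ± 0.71 for Eng (adjusted p = 0.0323), all higher in the knockout, against 23.6% of all genes called (14% rose and 9.63% fell). For Tek this came with a fall in Cre-negative skin and 0.26 ± 0.45 in knockout skin, and for Kdr with changes of opposite sign. Icam1 had 1.73 ± 0.61 (adjusted p = 0.0555) and passed under 6 of 21 settings, with RLE scaling, library size alone, DESeq2, a stricter filter, only the groups compared and a replicate block (adjusted p from 0.0267 to 0.0487). Tie1 had the opposite sign (-1.66 ± 0.68, adjusted p = 0.0899) and passed with a sex term (-3.09). Sele (0.49 ± 1.73), Selp (0.19 ± 1.04) and Vcam1 (0.86 ± 0.80) did not pass, with wide errors. The Kdr call ended only without knockout IMQ replicate 1 (1.85). The Tek call ended without that library (2.04), Cre-negative IMQ replicate 2 (2.02), knockout DMSO replicate 3 (2.11) or the libraries high in Rn18s-rs5 (2.12), and with a sex term (2.36). The Eng call ended under 10 of 21 settings, among them without knockout IMQ replicate 1 (1.36), and Vcam1 passed without Cre-negative IMQ replicate 2 (2.48). This contrast shares its libraries with the comparisons above, and sex and response cannot be told apart in the knockout. Of 26 other endothelial genes 9 rose and 0 fell in it, and Angpt1 (5.65 ± 0.71) rose, while 8 of 10 skeletal muscle, 4 of 10 fibroblast and 3 of 10 macrophage markers rose too and 7 of 10 keratinocyte markers fell, and their part was not tested.

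Cre-negative and wild-type DMSO skin did not differ detectably in these genes. Of the 10 members 0 were called, against 0% of all genes tested with edgeR, where 1120 genes and 1 member, Tek, had an unadjusted p under 0.05. DESeq2 called 144 genes and limma voom 195, with 0 members in each. Tek was higher by 1.27 ± 0.45 on the log2 scale in Cre-negative skin (adjusted p = 0.439), with 1.39 ± 0.128 CPM (SD, n = 2) in wild-type and 3.39 ± 0.342 (n = 3) in Cre-negative libraries, and its libraries did not overlap. Of the members 2 lay wholly above and 2 wholly below, against 16.1% and 14.5% of all genes.

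Set side by side, the adhesion median lay above the identity median in 5 of the 6 comparisons that involve IMQ or the knockout, which share groups. The median log2 changes of adhesion and identity genes were 1.40 and -0.81 for IMQ in wild-type skin, then 0.69 and -0.50 for Cre-negative and 1.60 and 0.98 in knockout skin. Comparing the knockout with Cre-negative skin, they were 2.55 and 0.76 under DMSO and 3.07 and 2.13 under IMQ, while the medians of all genes lay between -0.09 and 0.02. For the difference of responses the order was turned, with 0.68 for the adhesion and 1.81 for the identity genes, against 0.11 for all genes. Cre-negative against wild-type DMSO skin, with neither IMQ nor the knockout, had the same order as the 5. There the medians were 0.34 for the adhesion and -0.12 for the identity genes, and edgeR called 0 genes. With 4 and 6 genes these medians are a description, and the difference between the classes was not tested. They also hide a spread within each class. For IMQ in wild-type skin Sele had 3.40, Selp 2.65, Icam1 0.15 and Vcam1 -0.52, while the identity gene Tie1 had 2.34. Scaling by library size alone moved the median of all genes, for example from -0.09 to -0.76 for IMQ in wild-type skin. Relative to it the identity median there was -0.72 under TMM and -0.76 under library size, and the adhesion median 1.49 and 1.56.

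Within each library the mean log2 CPM of the adhesion genes minus that of the identity genes gives a balance that depends on the scaling between libraries only through the prior count. Since tags per transcript differ between genes, only its change between libraries is read. The balance was -1.94 and -2.10 in wild-type DMSO and -2.06, -1.88 and -1.57 in Cre-negative DMSO skin. It was -1.28 and -0.43 in wild-type IMQ, -1.02 and -0.68 in Cre-negative IMQ, -0.50, -0.23 and -0.86 in knockout DMSO, and 0.26 and 0.28 in knockout IMQ skin. All control DMSO libraries lay below all others, and both knockout IMQ libraries lay above all others. Knockout DMSO skin overlapped with the IMQ-treated controls in this balance. The controls got there with identity means of 1.79 to 2.03 against 2.0 to 2.33 with DMSO and adhesion means of 0.56 to 1.60 against 0.02 to 0.46. Knockout DMSO libraries had identity means of 2.36, 3.39 and 2.60 and adhesion means of 1.86, 3.16 and 1.73, and knockout IMQ libraries 4.14 and 3.36, and 4.40 and 3.63.

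**Figure D4:**
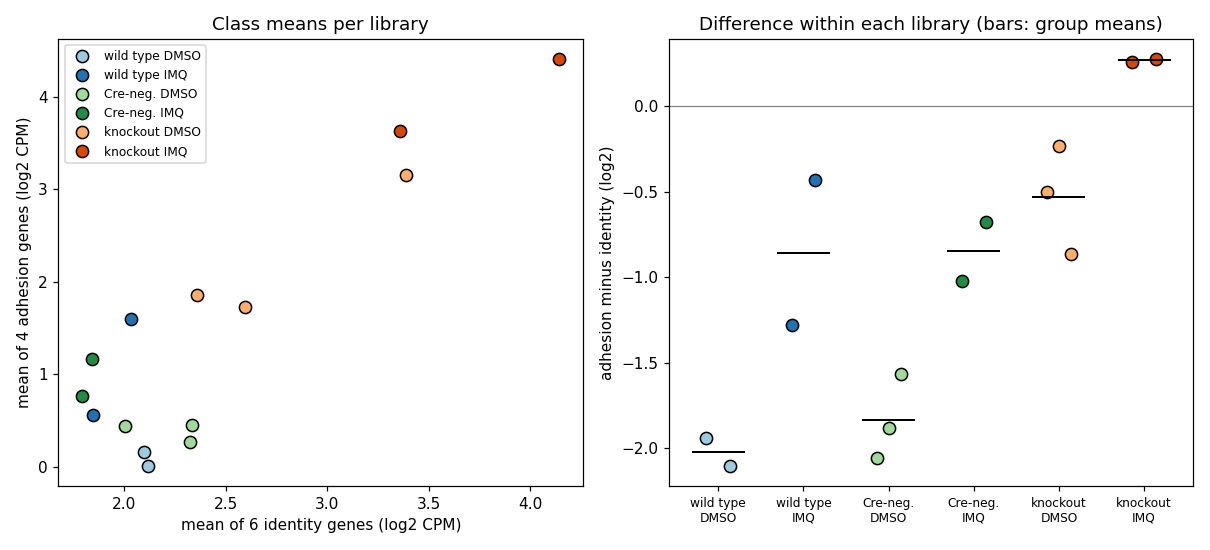
Left, mean log2 CPM of the 6 identity genes (x axis) and of the 4 adhesion genes (y axis) in each of the 14 libraries, and right, the difference of both means by group with bars at the group means. The difference runs from -2.10 in a wild-type DMSO library to 0.28 in a knockout IMQ library, and in the left panel knockout DMSO replicate 2 lies near knockout IMQ replicate 2.

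Not all of the 4 adhesion genes shared this course. Relative to the identity mean, Selp went from -2.86 in wild-type DMSO to -0.57 in wild-type IMQ and from -2.73 to -0.54 between Cre-negative and knockout DMSO skin, and Sele went from -4.38 to -2.11 and from -4.22 to -2.29. Icam1 stayed between -0.88 and -0.09 in the 5 other groups and reached 0.33 in knockout IMQ skin. Vcam1 went from 0.28 in Cre-negative DMSO to 1.3 in knockout DMSO and 2.67 in knockout IMQ skin, and was -0.27 in wild-type IMQ skin. In Cre-negative IMQ skin Vcam1 was 1.65, with libraries at 0.53 and 2.77, the latter above both knockout IMQ libraries (2.65 and 2.69). There Selp was -1.36 and Sele -3.60, with Sele libraries at -3.04 and -4.16.

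By likeness of pattern over the 14 libraries (Pearson r of log2 CPM, a description without a p, over libraries that share groups, sex and depth), the genes nearest the mean of the 6 identity genes were Disp2 (r = 0.948), Gm45266 (0.947), Prom1 (0.943), Gm18445 (0.939) and Prl8a1 (0.936). Nearest Sele were Gm13840 (0.931), Prg4 (0.922), Tmem252 (0.921), Apex2 (0.914) and Myo9b (0.909). Several of these have 0 counts in some libraries, and Sele itself has at most 56. Selp had r = 0.93 with Sele, between those of Gm13840 and Prg4.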

How the data were processed

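The deposited table, in featureCounts layout per the file headers, gives whole-number read counts for 56953 genes and 14 QuantSeq FWD libraries of mouse skin, without normalization by the authors. Its other deposited unit, exon length in bases, was left aside. STAR, featureCounts, DESeq2 and the builds GRCm38 and GRCm39 appear in the submitters' processing notes, with no version or role given. Strand and multi-mapping settings are not given in those sources. Gene positions in the file are on GRCm39.

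Groups were taken from genotype and treatment labels. edgeR 4.0.16 (R 4.3.3) filtered genes with filterByExpr (16027 kept), scaled by TMM and fitted all 6 groups in 1 quasi-likelihood model. The procedure was tested on simulated data. Adjusted p-values are Benjamini-Hochberg over all genes tested, with a threshold of 0.05. The SE comes from the log2 change and its F statistic, and log2 CPM used a prior count of 2. Count ratios carry exact 95% intervals, which cover counting error only, and a group at 0 had a floor of 3 counts over the group. Totals of 5552954 to 34362477 counts per library set the precision.

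The members, the other gene lists (183 genes in 14 lists) and the tests were chosen with earlier results of these data known. Named genes are the 10 members, up to 4 genes per list with the smallest p in a comparison, and the 5 genes most like the identity mean and Sele. Aplnr, Ly6g, Stfa2l1 and Gp1ba were named for being at 0. Alternatives were DESeq2 1.42.0, limma 3.58.1 voom with quality weights, 3 other scalings, no filter and a stricter filter (2 CPM in 2 libraries), only the groups compared, a replicate block, a sex term, leaving out libraries with over 15% Rn18s-rs5, and leaving out each library.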

Additional observations from a re-analysis of the deposited data

Results flagged for a closer look

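The IMQ responses of knockout and Cre-negative skin differed, by a test of the difference itself, for Kdr (2.62 on the log2 scale), Eng (2.33) and Tek (2.38). All were higher in the knockout. These 3 of 10 members stand against 23.6% of all genes called. The Eng call ended under 10 and the Tek call under 5 of 21 settings. Without knockout IMQ replicate 1 the differences were 1.85 for Kdr, 1.36 for Eng and 2.04 for Tek. Sex and response cannot be told apart in the knockout.

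Kdr also lay in opposite directions across genotypes. Every IMQ library lay below the DMSO libraries in wild-type skin (-1.14) and Cre-negative skin (-1.29) and above them in knockout skin (1.33). None of these changes passed the threshold (adjusted p = 0.0886, 0.0557 and 0.051). Of all genes, 34.3% lay wholly below with IMQ in wild-type, 29.5% wholly below in Cre-negative and 22.5% wholly above in knockout skin. In knockout skin the nearest libraries were 16.6 CPM with IMQ and 15.3 with DMSO, and sex and response cannot be told apart. Cdh5 libraries with IMQ were likewise apart, below in wild-type skin (-1.21, adjusted p = 0.199) and above in knockout skin (1.01, 0.259), and neither change passed. The difference between wild-type and knockout responses was not tested. Libraries of 2 or 3 per group are too few for a check of single outlying samples.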

How the results depend on the processing

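Of 1156 values of single members under the alternatives, 996 kept their direction and side of the threshold, 92 lost a call and 33 gained one, all in the same direction. The other 35, none past the threshold, changed sign, among them Tie1 with IMQ in knockout skin (-1.36 with a sex term) and Sele in the difference of responses (-0.74 without the libraries high in Rn18s-rs5). The cause of a changed count was not tested. Members past the threshold moved as follows. For IMQ in wild-type skin (2) limma voom and a model of only the groups compared gave 1 each, and leaving out single libraries 0 to 2. For Cre-negative skin (2) no filter gave 4, leaving out the libraries high in Rn18s-rs5 gave 0, and leaving out single libraries 0 to 3. For knockout skin (3) a sex term gave 0 and single libraries 0 to 5. Comparing knockout with Cre-negative DMSO skin (5), limma voom gave 8, a sex term 1 and single libraries 2 to 5. With IMQ (9) single libraries gave 2 to 7. For the difference of responses (3) library size alone gave 5 and single libraries 0 to 3. Cre-negative against wild-type skin kept 0 throughout.

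The labels give replicate numbers without saying what they share. Of 31 pairs of libraries with the same number, 11 had deviations that correlated above 0.1 (mean 0.057), against 13 of 50 other pairs (mean -0.035). The highest value was 0.49, between replicate 1 of wild-type IMQ and of knockout DMSO skin. In a group of 2 libraries the deviations mirror each other. The pairs are therefore not independent and cannot decide whether the numbers carry a pairing. With a replicate block the members past the threshold were 2, 2, 2, 5, 9 and 3 in the 6 comparisons. Eng in knockout skin (1.5, adjusted p = 0.134) and in the difference of responses (2.30, adjusted p = 0.0501) did not pass, and Icam1 in the latter did (1.83, adjusted p = 0.0453).

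Over all genes, library size alone turned the 1537 rises and 1896 falls of wild-type IMQ skin into 551 and 3608, the 1307 and 1614 of Cre-negative skin into 537 and 3141, and the 2242 and 1543 of the difference of responses into 3650 and 511. It gave 1183 rises (2243 under TMM) for the knockout against Cre-negative DMSO skin and 496 falls (1014) with IMQ. All genes past the threshold numbered 1863 (3433) for wild-type IMQ with only the groups compared, 1762 (2921) for Cre-negative IMQ without the libraries high in Rn18s-rs5, and 1028 (1776) and 210 for knockout IMQ with only the groups compared and with a sex term. They numbered 7297 and 1448 (4752) for the knockout against Cre-negative DMSO skin by limma voom and with a sex term, 1790 (2866) with IMQ by limma voom, and 1469 (3785) for the difference of responses with a sex term. Low counts limit Sele, with at most 6 counts per group in control DMSO skin. They also limit Tek, with 7 and 9 counts in the Cre-negative IMQ libraries. Tie1 had 8 and 12 counts in wild-type DMSO and 15, 13 and 3 in Cre-negative DMSO libraries, and Cdh5 had 5 in knockout DMSO replicate 1.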
